A study of Ursus arctos with 5 samples.

Results

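Autophagy and lysosome genes were followed in the gastrocnemius muscle of 2 grizzly bears, Tia and Star, that were sampled in October while active and in February during hibernation. The members are all assembled transcripts whose gene name belongs to the ATG, ULK, WIPI, GABARAP, MAP1LC3, LAMP or single-letter CTS families or to the ATP6V subunits, together with SQSTM1, CD63, GNPTAB and PLA2G15. This rule found 42 of 9093 annotated transcripts, which named 25 of 4873 genes. Of the 25 genes, 11 belong to the machinery of autophagy and 14 to the lysosome. Poly(A) RNA of 1 biopsy per bear and state gave 4 single-end Illumina libraries, so that each state has 2 libraries and each bear serves as its own comparison.

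Both states share the animals, the muscle, captivity and isoflurane during the biopsy. They differ in feeding, which stopped before the February biopsies, and in the dose of tiletamine and zolazepam that induced anesthesia, which was lower in hibernation, so that state, season, feeding and dose cannot be told apart. The labels give adult bears of 10 years throughout, whereas the study speaks of an adult and a subadult without naming them. In the labels both animals share 1 single-end sample for each state, and the column names of the deposited table tell the bears apart. Values are RPKM, a read number corrected for the length of the transcript and the aligned total of the library, and differences are taken on the scale of log2(RPKM + 0.5), hibernation minus activity. This scale understates the difference of low transcripts. The libraries held between 44645000 and 54150000 aligned reads, as estimated from the step of the deposited values, and each member value rested on at least 42.0 reads, with a median of 716. All listed transcripts lie at an RPKM of 1 or more in every library, so a family member below that level in any library was not analysed here.

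Autophagy encloses portions of cytoplasm in a double membrane and delivers them to the lysosome. A kinase complex around ULK1 starts the process, lipid transfer proteins and phosphoinositide-binding WIPI proteins help to expand the membrane, and a ubiquitin-like conjugation system attaches proteins of the ATG8 family to it. Lysosomes are acidified by the vacuolar proton pump (V-ATPase) and degrade their contents with hydrolases such as cathepsins, many of which reach the organelle by a mannose 6-phosphate tag. In skeletal muscle this pathway works beside the proteasome in protein breakdown and is known to respond to fasting and disuse.

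Of the 25 genes, each read by its transcript with the most reads, 3 lysosomal genes stood higher and 1 stood lower in both hibernating libraries with a score of at least 0.8. The 3 higher genes were CTSD, the aspartic protease cathepsin D, GNPTAB, which encodes subunits of the enzyme that starts the mannose 6-phosphate tag, and CD63, a tetraspanin of late endosomes and lysosomes. The lower gene was PLA2G15, a lysosomal phospholipase. None of the 11 autophagy genes reached this score, and their log2 differences lay between -0.67 and 0.45. The score, written after the description of NOISeq, compares the state means of a transcript with the contrasts of Tia against Star in the same state over all transcripts, and gives the share of these that are no larger in log ratio and in RPKM. Among all 4873 genes, 2.46% reached it with a higher and 1.52% with a lower level in hibernation. When limma compared the 2 libraries of each state, no annotated transcript passed an adjusted p of 0.05 (0% of 9093), while 7.84% of all genes were higher and 1.66% lower at an unadjusted p under 0.05, and the adjusted p of the members lay between 0.541 and 0.967. By the transcript with the most reads, the same 4 genes were the members with an unadjusted p under 0.05, 3 of them higher and 1 lower. Shorter transcripts of LAMP2 and CTSC, described below, also had an unadjusted p under 0.05. CD63, GNPTAB and PLA2G15 stand in the rule by name, and among the other 22 genes 1 reached the score, so the count says little about the pathway as a whole.

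**Figure D1:**
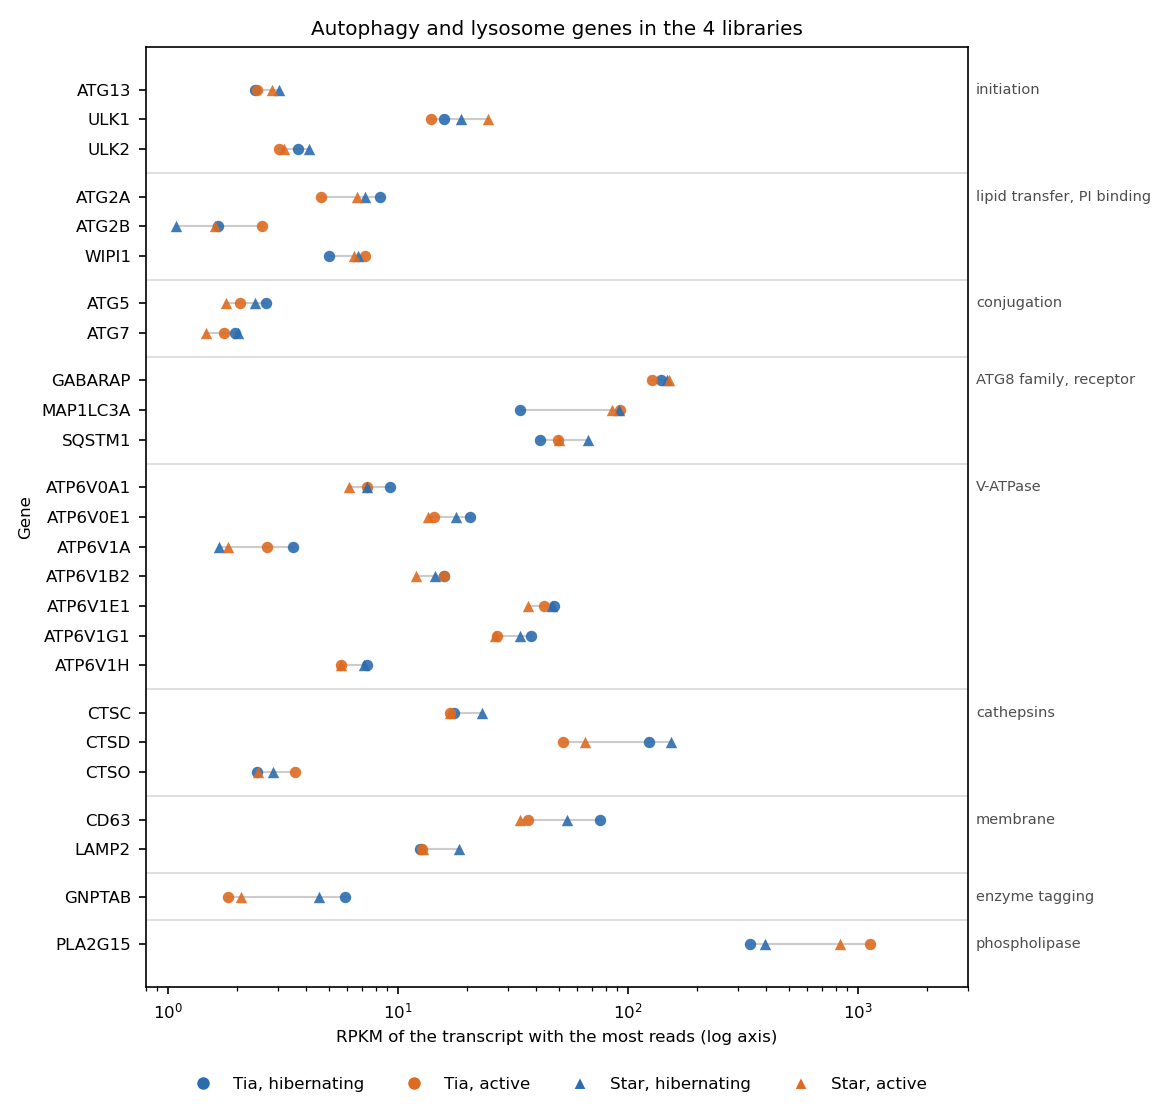
RPKM (log axis) of the 25 genes in each of the 4 libraries, by role; circles are Tia, triangles Star, blue hibernating and orange active, the grey line spans the 4 values, and PI stands for phosphoinositide. For CTSD, CD63 and GNPTAB both blue points lie right of both orange points, for PLA2G15 both lie left of them, and for GABARAP and SQSTM1 the colours overlap.

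CTSD (isotig43653, 441 bases) was at 124 RPKM in hibernating and 52.4 in active Tia, and at 154 in hibernating and 65.4 in active Star. Both hibernating libraries lay above both active ones, and the ratio was almost equal in the bears, 2.37 in Tia and 2.36 in Star. This gave 1.23 on the log2 scale (SE 0.25, adjusted p = 0.541 by limma) and a score of 0.944. Star was higher than Tia by 0.31 on the log2 scale in hibernation and by 0.32 in activity, so that the offset between the animals was the same in both states. With any 1 library or bear left out, the log2 fold change stayed between 1.07 and 1.39.

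GNPTAB was assembled as 2 transcripts of 5349 and 5263 bases, which carried nearly identical values and therefore largely the same reads. The longer (isotig15319) was at 5.88 RPKM in hibernating and 1.82 in active Tia, and at 4.56 in hibernating and 2.07 in active Star. The ratio was 3.23 in Tia and 2.202 in Star, and the groups did not overlap. Its log2 fold change was 1.22 (SE 0.24, adjusted p = 0.541 by limma) and its score 0.835. At these low levels each value still rested on at least 495 reads, since the transcript is long.

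CD63 was likewise assembled as 2 transcripts, of 901 and 848 bases, with almost the same reads. The one with more reads (isotig10160) was at 75.7 RPKM in hibernating and 36.9 in active Tia, and at 54.4 in hibernating and 33.9 in active Star. Both active libraries lay close together, and the hibernating libraries lay above them by a ratio of 2.05 in Tia and 1.60 in Star. The mean difference was 0.85 on the log2 scale (SE 0.25, adjusted p = 0.541 by limma), and the score was 0.851. CD63 rested on single libraries more than the other 3 genes did, since its unadjusted limma p of 0.014 became 0.14 without hibernating Tia and 0.055 without active Star.

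PLA2G15 (isotig29662, 902 bases) was at 341 RPKM in hibernating and 1129 in active Tia, and at 394 in hibernating and 839 in active Star. Both hibernating libraries lay far below both active ones, at a ratio of 0.302 in Tia and 0.469 in Star. Its log2 fold change of -1.41 (SE 0.31, adjusted p = 0.541 by limma) was the largest of the members in size, and its score was 0.973. By mean RPKM this transcript ranked 31 among the 4873 genes, above every other member, and between 15400 and 53437 reads stood behind its values. The name of this transcript rests on its BLAST match to a human protein, and its identity was not tested. In the bulk tissue, fewer cells of a type and less RNA per cell cannot be told apart.

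By their transcripts with the most reads, the other cathepsins and LAMP2 had smaller differences, between -0.14 and 0.26 on the log2 scale. CTSC, which removes dipeptides from the ends of proteins and activates serine proteases, was at 17.6 RPKM in hibernating and 16.9 in active Tia, and at 23.3 and 16.8 in Star. CTSO, a cysteine protease, was at 2.43 RPKM in hibernating and 3.56 in active Tia and at 2.88 and 2.47 in Star, so that the bears went in opposite directions. LAMP2, a major glycoprotein of the lysosomal membrane, was assembled as 2 transcripts. The longer (isotig15641) was at 12.5 RPKM in hibernating and 12.7 in active Tia, and at 18.5 and 12.8 in Star. The shorter (isotig15642, 2721 bases) was at 10.7 and 6.64 RPKM in Tia and at 10.1 and 6.60 in Star. Both hibernating libraries lay above both active ones, with a log2 fold change of 0.61 and a score of 0.699. Neither CTSC nor LAMP2 reached a score of 0.8 by any of its transcripts. For their shorter transcripts the unadjusted limma p was 0.026 (CTSC) and 0.025 (LAMP2), and the adjusted p was 0.546 for both.

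The 7 measured V-ATPase subunits were between 0.11 and 0.45 higher in hibernation on the log2 scale by their mean, none with a score of 0.8 or an unadjusted p under 0.05. Of these, 6 were higher in both bears, beside 48.7% of all genes, and 4 had both hibernating above both active libraries, beside 35.8% of all genes. ATP6V0E1, a small subunit of the membrane sector, was at 20.6 RPKM in hibernating and 14.3 in active Tia, and at 17.9 and 13.5 in Star. ATP6V1G1, a subunit of the peripheral stalk, was at 37.8 and 26.9 RPKM in Tia and at 33.9 and 26.3 in Star. These 2 subunits had the largest differences of the complex, with log2 fold changes of 0.45 and 0.42 (adjusted p = 0.583 and 0.587 from limma). ATP6V1E1, also of the stalk, was at 47.6 and 43.4 RPKM in Tia and at 46.9 and 36.9 in Star. ATP6V1H, which regulates the pump, was at 7.33 and 5.65 RPKM in Tia and at 7.15 and 5.68 in Star. For both genes the hibernating libraries were the higher ones, and for ATP6V1H the values of the bears were nearly the same within a state.

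The 3 remaining subunits had overlapping groups by their transcripts with the most reads. ATP6V0A1, of the membrane sector, was at 9.23 and 7.34 RPKM in Tia and at 7.31 and 6.14 in Star. The hibernating value of Star fell just below the active value of Tia. In the ATP6V0A1 transcript of 4084 bases both hibernating libraries lay above both active ones, and in that of 1472 bases the groups overlapped. ATP6V1B2, a nucleotide-binding subunit, was at 15.9 RPKM in both libraries of Tia and at 14.4 and 12.0 in Star. It is counted as higher in both bears, although its log2 difference in Tia was only 0.0013. The catalytic subunit ATP6V1A was at 3.49 and 2.70 RPKM in Tia and at 1.67 and 1.82 in Star, and was the subunit whose direction differed between the bears. Although the pump holds its subunits in fixed proportions, their transcripts ranged from 1.67 RPKM (ATP6V1A) to 47.6 (ATP6V1E1), both values from hibernating libraries. After median-ratio scaling, 5 of the 7 were higher in both bears, beside 30.4% of all genes, and the directions of ATP6V1A and ATP6V1B2 turned, to -0.022 and -0.031 on the log2 scale.

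**Figure D2:**
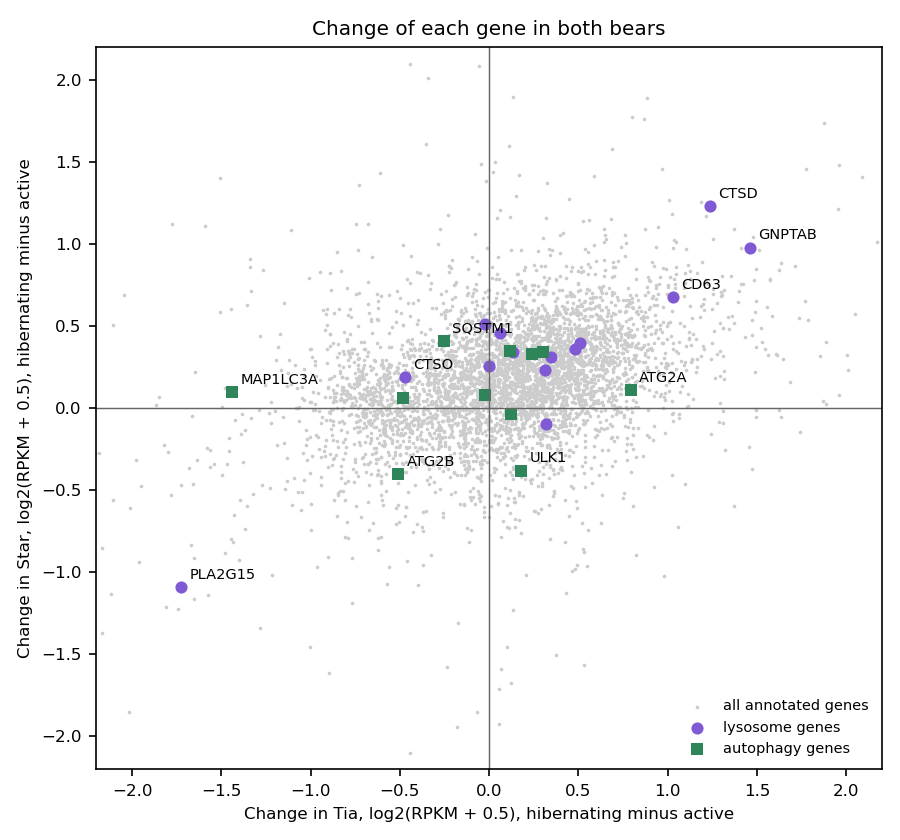
Log2 difference between hibernation and activity in Tia (horizontal axis) and in Star (vertical axis) for the 14 lysosome genes (purple circles), the 11 autophagy genes (green squares) and all 4873 annotated genes (grey), of which 34 lie outside the axes. CTSD, GNPTAB and CD63 lie at the upper right, PLA2G15 at the lower left, and MAP1LC3A is displaced along the axis of Tia alone.

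Of the 11 genes of the autophagy machinery, 6 were higher in hibernation in 1 bear and lower in the other, beside 35.2% of all genes, a difference that was not tested. MAP1LC3A, which encodes the LC3A protein of the ATG8 family, was at 33.9 RPKM in hibernating and 92.9 in active Tia, and at 91.6 in hibernating and 85.6 in active Star. A single library, hibernating Tia, stood apart from the other three, and without it the log2 fold change of -0.67 (SE 0.47, adjusted p = 0.673 by limma) became 0.04. The transcript is short (isotig44627, 412 bases), and at least 700 reads stood behind each value. GABARAP, another ATG8 family member, was the most abundant autophagy gene, at 139 and 127 RPKM in Tia and at 148 and 152 in Star. Its values spanned a narrow range, and the groups overlapped. SQSTM1, the cargo receptor p62, was at 41.5 and 49.6 RPKM in Tia and at 67.1 and 50.4 in Star, and the bears went in opposite directions. All 3 genes thus had overlapping groups, with scores between 0.068 and 0.676.

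The kinase genes of the initiation complex also differed from one another. ULK1 was at 15.8 and 13.9 RPKM in hibernating and active Tia and at 18.9 and 24.8 in Star. ULK1 was higher in hibernation in Tia and lower in Star, and its second transcript, of 438 bases, had the same split. ULK2 was at 3.67 and 3.03 RPKM in Tia and at 4.12 and 3.18 in Star, with both hibernating libraries above both active ones and a log2 fold change of 0.28 (SE 0.22, adjusted p = 0.695 by limma). ATG13, the scaffold of the complex, was assembled as 5 transcripts with values between 2.31 and 3.08 RPKM, and their log2 differences in single bears lay between -0.04 and 0.11.

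Among the genes of membrane expansion, ATG2A and ATG2B encode related lipid transfer proteins, and their levels went in different directions. ATG2A was at 8.40 and 4.64 RPKM in hibernating and active Tia and at 7.22 and 6.65 in Star, higher in hibernation in both bears. ATG2B was at 1.65 and 2.56 RPKM in Tia and at 1.08 and 1.60 in Star, lower in both bears, on a transcript of 715 bases with at least 42.0 reads. The hibernating value of Tia lay above the active value of Star, so the groups of ATG2B overlapped, and with the animal as a replicate block its unadjusted limma p was 0.035. WIPI1, a phosphoinositide-binding protein of the forming membrane, was at 4.996 and 7.17 RPKM in Tia and at 6.71 and 6.42 in Star. Its 4 transcripts were all lower in hibernating Tia, with log2 differences of -0.48 to -0.33, and lay between -0.03 and 0.06 in Star.

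Both genes of the conjugation machinery were slightly higher in hibernation. ATG5, part of the complex that attaches ATG8 proteins to lipid, was at 2.66 and 2.07 RPKM in Tia and at 2.40 and 1.79 in Star. ATG7, the activating enzyme of the conjugation system, was at 1.95 and 1.76 in Tia and at 2.01 and 1.47 in Star. The hibernating libraries lay above the active ones for both genes. The log2 fold changes of 0.32 and 0.23 had standard errors of 0.20 and 0.19 and adjusted p of 0.652 and 0.699 from limma. After upper-quartile scaling, 1 of the 2 was higher in both bears, beside 27.9% of all genes, and the mean differences of both stayed above 0.

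**Figure D3:**
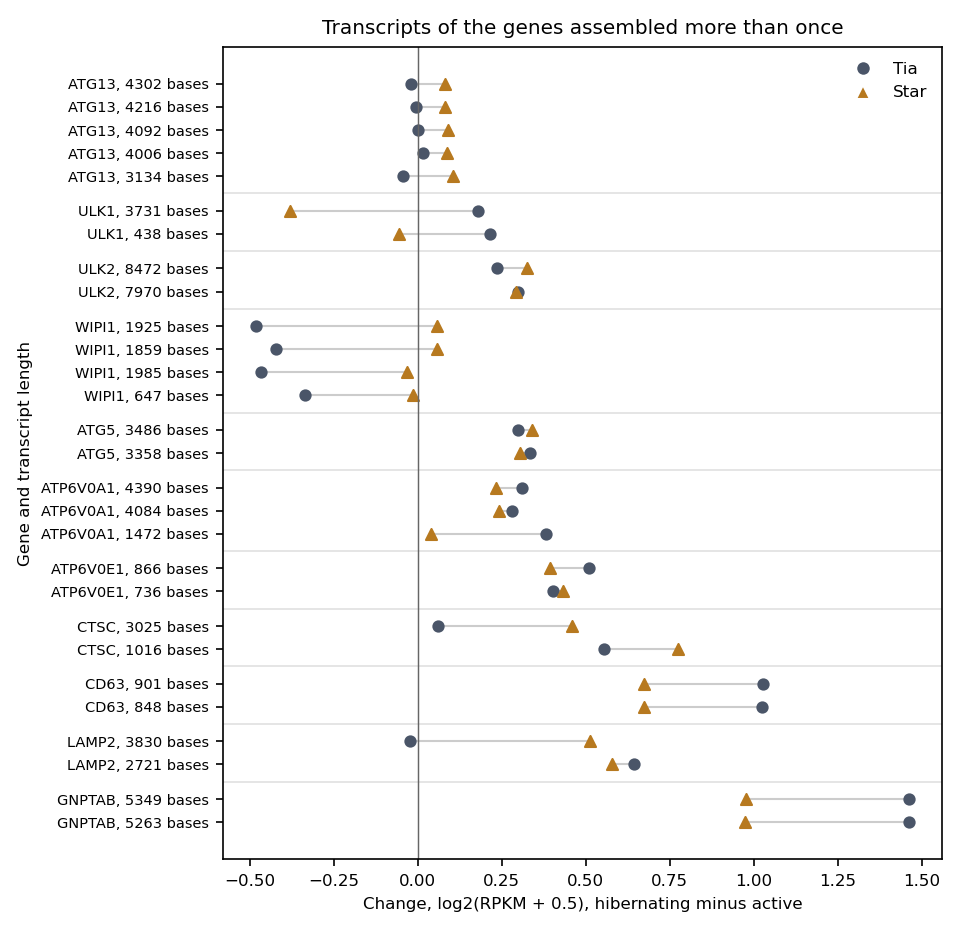
Log2 difference between hibernation and activity in Tia (circles) and Star (triangles) for the 28 transcripts of the 11 genes assembled more than once, labelled by gene and length. The transcripts of CD63 and of GNPTAB coincide, whereas those of LAMP2 and CTSC differ, chiefly in Tia.

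Of the 25 genes, 14 were represented by 1 transcript and 11 by several. Transcripts of 1 gene can share sequence and reads, which was not examined here, so they are not taken as independent. Averaged over the bears, the transcripts of 10 of these 11 genes pointed in 1 direction, and those of ULK1 did not. All 25 gene names occur in the RefSeq annotation of the brown bear assembly UrsArc2.0. Only names were compared and no transcript was aligned, so this does not test how the transcripts were named. The member genes were more abundant than most, with a median of 14.1 RPKM over the 4 libraries against 4.90 for all genes.

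Counted over the list, 14 of the 25 genes were higher in both bears, 2 (ATG2B and PLA2G15) were lower in both, and 9 differed in direction, where 48.7% of all genes were higher and 16.1% lower in both. Both hibernating lay above both active libraries for 12 genes and below them for 1, PLA2G15, where all genes gave 35.8% and 8.11%. The median log2 fold change was 0.24 for the members and 0.15 for all genes, and 0.27 for the 14 lysosome genes against 0.04 for the 11 autophagy genes. The latter difference was not tested. By bear, the member median was 0.13 in Tia, equal to that of all genes, and 0.31 in Star, where all genes had 0.17. Median-ratio scaling lowered all log2 differences by 0.11 in Tia and by 0.22 in Star, which brought the median of all genes to -0.00 and that of the members to 0.08. Of the members, 11 were then higher and 5 lower in both bears, beside 30.4% and 31.2% of all genes. Under both scalings CTSD, GNPTAB, CD63 and PLA2G15 kept their direction and an unadjusted limma p under 0.05, but the score of CD63 was below 0.8 under both (0.791 and 0.772), and that of GNPTAB was 0.808 by median-ratio and 0.793 by upper-quartile scaling.

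Other genes of the pathway were read from lists that are separate from the rule. Of 44 listed genes of lysosomal hydrolases and enzymes that act with them, 19 were measured, and 10 were higher and 1 lower in both bears (52.6% and 5.26%, beside 48.7% and 16.1% of all genes). Their median log2 fold change of 0.16 was near that of all genes, and none reached a score of 0.8. NAPSA, the aspartic protease napsin A, was at 3.94 and 1.72 RPKM in hibernating and active Tia and at 3.50 and 2.297 in Star. ACP2, a lysosomal acid phosphatase, was at 8.03 and 4.48 RPKM in Tia and at 7.44 and 5.37 in Star. ARSA, arylsulfatase A, was the gene lower in both bears, at 1.58 and 4.87 RPKM in Tia and at 3.48 and 3.86 in Star. NAPSA and ACP2 therefore lay on the side of CTSD, though with smaller log2 fold changes of 0.76 and 0.61 (adjusted p = 0.541 and 0.549 from limma).

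Of 56 genes of the lysosomal membrane and of sorting to the lysosome, 25 were measured. In both bears 14 of them were higher and 4 lower (56% and 16%, beside 48.7% and 16.1% of all genes). Their median was 0.19, and none reached a score of 0.8. CD68, a lysosomal membrane glycoprotein abundant in macrophages, was at 6.41 and 3.94 RPKM in hibernating and active Tia and at 7.12 and 3.28 in Star. GGA3, an adaptor that sorts cargo from the Golgi, was at 7.55 and 3.90 RPKM in Tia and at 6.61 and 5.34 in Star. NPC2, which carries cholesterol out of the lysosome, was at 16.8 and 11.3 RPKM in Tia and at 18.7 and 13.1 in Star. In all 3 genes the hibernating libraries lay above the active ones, with log2 fold changes of 0.83, 0.58 and 0.53.

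Of 42 further autophagy genes, 18 were measured. In both bears 9 of them were higher and 4 lower (50% and 22.2%, beside 48.7% and 16.1% of all genes). Their median was 0.15, and none reached a score of 0.8. NBR1, a cargo receptor related in function to SQSTM1, was at 3.21 and 1.53 RPKM in hibernating and active Tia and at 2.96 and 1.12 in Star, higher by 0.98 on the log2 scale (SE 0.21, adjusted p = 0.541 by limma). WDFY3, a large scaffold of selective autophagy, was at 7.69 and 4.12 RPKM in Tia and at 6.08 and 3.88 in Star. TECPR2 was at 2.89 and 1.86 RPKM in Tia and at 2.19 and 1.53 in Star. The groups of these 3 genes did not overlap.

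Of 38 regulators, 20 were measured, 5 of them higher and 6 lower in both bears (25% and 30%), beside 48.7% and 16.1% of all genes, with a median of 0.00. The difference from all genes was not tested. RRAGB, a GTPase that recruits mTORC1 to the lysosome, was at 3.33 and 1.17 RPKM in hibernating and active Tia and at 2.74 and 1.54 in Star. TFE3, a transcription factor of lysosomal genes, was at 2.87 and 1.40 RPKM in Tia and at 2.40 and 1.58 in Star. DEPTOR, an inhibitor of mTOR, was at 8.43 and 18.1 RPKM in Tia and at 10.1 and 15.8 in Star, and was the measured regulator with a score above 0.8. In RRAGB and TFE3 the hibernating libraries were the higher ones, and in DEPTOR the lower ones. After median-ratio scaling the medians of the 4 lists, in the order given, were 0.011, 0.045, -0.0051 and -0.15.

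**Figure D4:**
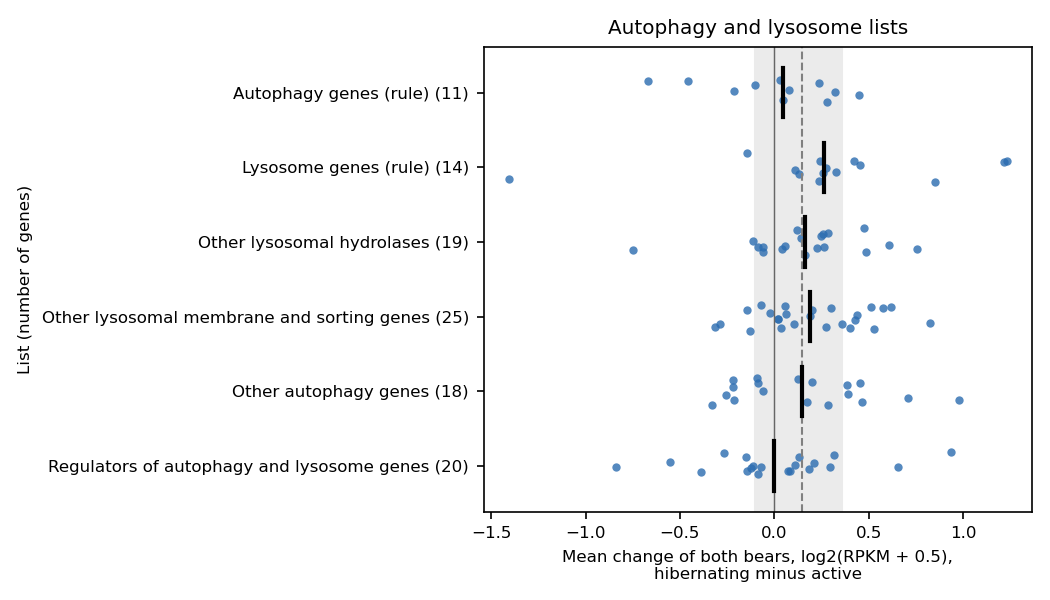
Mean log2 difference of both bears for each measured gene (points) of the rule, split into 11 autophagy and 14 lysosome genes, and of the 4 further lists; black bars are medians. The dashed line is the median of all 4873 genes (0.15) and the grey band their middle quartiles (-0.10 to 0.36), inside which all 6 medians lie.

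Other cell types could hold these transcripts as well. Of 16 macrophage markers 2 were measured, of which CD68 was higher in hibernation in both bears, whereas C1QA was at 15.7 and 27.4 RPKM in hibernating and active Tia and at 35.5 and 33.5 in Star. Their summed level was 22.1 and 42.6 RPKM in the hibernating and 31.4 and 36.7 in the active libraries. Muscle fibre markers, 5 of 11 measured (MYH1, MYH2, MYH7, TNNC2 and TTN), summed to 10665 and 14888 RPKM in hibernation and to 13237 and 16078 in activity. Of 10 markers of endothelium and blood, 2 were measured, with sums of 21.4 and 17.4 RPKM in hibernation and 22.4 and 12.2 in activity. The active library of Tia stood apart in fat cell markers (4 of 10 measured), which summed to 493 RPKM against 112 to 135 in the other libraries, and in fibroblast and matrix markers (7 of 12), which summed to 815 against 242 to 386. The sum was carried by SPARC (404 RPKM there, 46.7 to 79.5 elsewhere) and COL1A1 (193, and 6.79 to 10.95 elsewhere). COL3A1 went the other way, at 254 and 116 RPKM in hibernating and active Tia and at 210 and 136 in Star with a score of 0.862, as did COL1A2, at 3.995 and 2.59 in Tia and at 3.59 and 3.15 in Star. Of the 7 matrix markers, 2 were higher and 2 lower in both bears, beside 48.7% and 16.1% of all genes. The lower ones were FBN1 (score 0.930), at 7.58 and 24.9 RPKM in Tia and 7.27 and 14.1 in Star, and COL6A2 (0.884). COL6A2 was at 12.9 and 37.2 RPKM in Tia and 13.7 and 18.3 in Star. Of the 4 fat cell markers, 2 were lower in hibernation in both bears and 0 were higher. Those lower were SCD, at 5.20 and 189 RPKM in Tia and 2.79 and 10.1 in Star, and FASN. FASN was at 4.05 and 113 RPKM in Tia and 2.96 and 5.79 in Star. Without active Tia the log2 fold changes were 1.07 for CTSD, 1.14 for GNPTAB, 0.91 for CD63 and -1.19 for PLA2G15. The part of these cell types in the results was not tested.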

How the data were processed

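The authors aligned single-end Illumina reads with SOAP2, allowing 2 mismatches, to transcripts assembled de novo, named these by BLAST against human proteins (Ensembl 66) and deposited RPKM beside the other measure in the table, the transcript length. How reads that match several transcripts were assigned is not given in the sources used here. Pooled and paired-end samples (3) were not used. From the deposited RPKM, log2(RPKM + 0.5) of 2 hibernating and 2 active libraries was compared with limma 3.58.1 (R 4.3.3, trended prior, Benjamini-Hochberg adjustment over 9093 annotated transcripts). No count test was run on RPKM. The score follows the description of NOISeq, with 53228 differences between bears over all 26614 transcripts and a threshold of 0.8 as in the study's methods. An exact test of 2 against 2 libraries cannot go below p = 0.333. A gene is read by the transcript with the highest mean RPKM times length. Depth came from the step of RPKM times length in short transcripts, where 94.6% to 98.6% of low values were whole reads within 0.1. All standard errors and p-values come from the limma fit without pairing, and the animal as a block was an alternative. The libraries are paired by bear, and the deviations of Star from Tia in both states had a Pearson r of 0.36 across annotated transcripts. Named are all member genes, and other transcripts of a member that differ in direction, in a bear or by the mean, or reach a score of 0.8. The shorter transcript of CTSC and the other transcripts of ATP6V0A1 are named as well. Of each further pathway list, genes with a score of 0.8 or more and the 3 largest differences without overlap of the groups are named. Members and lists were chosen with earlier results of these data known. The scripts were tested on simulated data. Python 3.11.15, pandas 2.3.3, numpy 2.4.6 and matplotlib 3.10.9 were used.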

Additional observations from a re-analysis of the deposited data

How the results depend on the processing

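The 17 alternatives covered the pseudocount, scaling, an RPKM minimum of 5, the prior, the animal as a replicate block, the longest transcript of a gene or the mean of its transcripts, all transcripts, a score of 0.9 and each library or bear left out. The score uses no pseudocount, and counts over both bears had no value with a library left out. The number of members with an adjusted p under 0.05 from limma was 0 to 1 with 1 library left out; the 1 was GNPTAB without hibernating Star (log2 fold change 1.39). The score of 0.8 was reached by 4 members, by 3 after median-ratio and by 2 after upper-quartile scaling, and 2 reached a threshold of 0.9. Members higher in both bears numbered 14 (56%, beside 48.7% of all genes), and 9 after upper-quartile scaling (36%, beside 27.9% of all genes). Those lower in both numbered 2, and 5 after median-ratio scaling, 7 after upper-quartile scaling and 1 at an RPKM of 5 or more, where 17 genes remained. The shares lower in both were 8%, 20% and 28% of members as deposited and by the 2 scalings. Among all genes they were 16.1%, 31.2% and 34.6%. The median log2 fold change of 0.24 became 0.084 by median-ratio and 0.047 by upper-quartile scaling, and 0.13 to 0.31 with a library or bear left out. Of 392 gene values, 32 of 10 genes turned in direction. After median-ratio scaling these were ATG13 (-0.11), ATP6V1A (-0.022), ATP6V1B2 (-0.031), GABARAP (-0.12) and SQSTM1 (-0.088), and after upper-quartile scaling the same genes (-0.14, -0.055, -0.068, -0.16 and -0.13). With a library or bear left out, the log2 fold change spanned 0 for ATG13 (-0.11 to 0.17), ATP6V1A (-0.33 to 0.55), ATP6V1B2 (-0.067 to 0.33), CTSO (-0.47 to 0.19), GABARAP (-0.082 to 0.17), LAMP2 (-0.032 to 0.52), MAP1LC3A (-1.44 to 0.098), SQSTM1 (-0.27 to 0.42), ULK1 (-0.50 to 0.30) and WIPI1 (-0.48 to 0.059). The replicate block gave 5 members an unadjusted limma p under 0.05 against 4, ATG2B being the fifth, and changed no other call. The cause was not tested. With 2 libraries a state, the precision of each difference rests on 2 animals.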
